A study of Mus musculus with 29 samples.

Results

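The 30 genes of cholesterol synthesis and sterol control were followed across the brain TRAP-RNAseq libraries of 2 NuTRAP mouse lines. They were chosen by gene symbol along the pathway, and all 30 were found among the 36172 gene rows of the count table. Of these, 18 encode enzymes of synthesis and 12 serve turnover, storage, transcriptional control and transport. In TRAP, ribosomes that carry an EGFP-tagged L10a protein are pulled from a brain homogenate with an antibody against GFP. RNA on the beads is the positive fraction, RNA left unbound is the negative fraction, the cleared homogenate is the input, and RNA isolated from brain in the conventional way is called whole tissue here.

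The Aldh1l1-Cre/Ert2+; NuTRAP+ mice (Aldh1l1-NuTRAP) express the tag where the Aldh1l1 promoter has driven the inducible Cre, which in brain is chiefly in astrocytes. The Cx3cr1-Cre/Ert2+; NuTRAP+ mice (Cx3cr1-NuTRAP) express it where the Cx3cr1 promoter has done so, which in brain is chiefly in microglia and also in other resident macrophages. All groups carried the NuTRAP allele and an inducible Cre, and every mouse was given tamoxifen (100 mg/kg, daily for 5 days) when about 3 months old, so no group without Cre or tamoxifen enters the comparisons. Brains of Cx3cr1-NuTRAP mice were taken 3 to 4 weeks after tamoxifen, while brains of the other line taken for flow cytometry and imaging were collected 1 week after it and the interval for its sequenced libraries is not given in the sources used here. The 29 libraries comprised positive and negative fractions of 3 Aldh1l1-NuTRAP mice (290, 293 and 294), positive, negative and input fractions of 6 Cx3cr1-NuTRAP mice (155, 192, 194, 209, 210 and 277), and whole tissue of 5 of the latter, all but mouse 155. The labels do not state the sex of the animals.

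Cholesterol does not cross the blood-brain barrier in useful amounts, so the brain makes its own, from acetyl-CoA through mevalonate, the isoprenoids, squalene and lanosterol. In adult brain astrocytes are a known site of this synthesis, and neurons turn surplus cholesterol into 24-hydroxycholesterol, which can leave the brain. Synthesis is governed by the SREBP proteins, membrane-bound transcription factors that SCAP escorts to the Golgi for cleavage when sterols are low and that INSIG proteins hold back when sterols are high. The liver X receptors respond to oxysterols and raise cholesterol export, and the NPC proteins move cholesterol out of late endosomes and lysosomes.

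Hmgcs1 was the first synthesis enzyme with opposite changes in the lines, described below. It was also the one member whose promoter window held the letters searched for a sterol regulatory element. Mvd and Insig1 were among the genes with the largest rise in the astrocyte fraction, and Cyp46a1 fell there. The promoters of these 4 members are printed. They are RefSeq windows of 250 bases before to 50 after the gene start that RefSeq uses, on build GRCm38.p6, 5′ to 3′ on the gene's strand. The starts given in the count table for Hmgcs1 and Cyp46a1 lie further downstream, beyond the end of the window, while those of Mvd and Insig1 lie within it. Capitals mark the letters TCACNCCAC of a sterol regulatory element, to which SREBPs bind, and the letters CCAAT of the box bound by NF-Y, both searched on either strand.
Hmgcs1, chr13:119690101-119690400, plus strand: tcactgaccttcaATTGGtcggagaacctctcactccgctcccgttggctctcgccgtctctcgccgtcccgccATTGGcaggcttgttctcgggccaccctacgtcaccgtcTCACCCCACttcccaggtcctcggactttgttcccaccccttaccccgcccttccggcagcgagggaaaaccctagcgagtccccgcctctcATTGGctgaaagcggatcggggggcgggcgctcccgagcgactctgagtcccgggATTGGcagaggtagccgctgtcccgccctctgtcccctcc
Mvd, chr8:122443373-122443672, minus strand: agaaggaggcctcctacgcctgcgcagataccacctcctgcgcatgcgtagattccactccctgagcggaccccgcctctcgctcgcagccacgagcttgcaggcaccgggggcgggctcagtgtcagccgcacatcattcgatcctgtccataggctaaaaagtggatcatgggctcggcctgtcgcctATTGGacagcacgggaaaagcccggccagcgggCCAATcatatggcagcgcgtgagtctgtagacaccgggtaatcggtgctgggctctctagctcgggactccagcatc
Insig1, chr5:28071162-28071461, plus strand: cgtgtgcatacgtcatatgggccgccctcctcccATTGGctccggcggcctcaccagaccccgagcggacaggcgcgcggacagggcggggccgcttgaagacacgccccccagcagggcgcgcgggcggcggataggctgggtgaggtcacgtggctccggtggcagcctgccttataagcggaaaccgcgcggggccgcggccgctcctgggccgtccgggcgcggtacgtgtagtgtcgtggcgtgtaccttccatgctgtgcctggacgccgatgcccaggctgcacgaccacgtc
Cyp46a1, chr12:108334066-108334365, plus strand: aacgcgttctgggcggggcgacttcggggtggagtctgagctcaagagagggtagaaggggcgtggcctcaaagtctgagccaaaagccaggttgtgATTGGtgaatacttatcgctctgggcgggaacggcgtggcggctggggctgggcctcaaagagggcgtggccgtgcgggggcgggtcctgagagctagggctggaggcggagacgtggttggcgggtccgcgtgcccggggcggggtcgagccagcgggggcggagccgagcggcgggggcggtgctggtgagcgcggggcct
Of the 30 members, 25 matched a window, and Fdps, Fdft1, Sqle, Stard4 and Npc1 did not. TCACNCCAC was found in 1 member, Hmgcs1, which is 4.0% of the 25, against 1.44% of the 27025 genes in the table. CCAAT was found in 21 of the 25 members, which is 84.0%, against 41.1% of all genes, and the 4 without it were Acat2, Scap, Nr1h2 and Nr1h3. The box was present in Lbr and Cyp46a1, which fell in the astrocyte fraction, as well as in Mvd and Insig1, which rose. A match is a description of the letters in this window and was not tested as a binding site. Other forms of either site were not searched.

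Total counts ranged from 4260949 to 26857866 over the libraries. Levels are given as CPM, the counts of a gene scaled to a common library total, and fold changes come from edgeR with TMM scaling, which corrects for a few genes taking a large share of a library. TMM factors were 0.708 to 0.779 in the Aldh1l1-NuTRAP positive fraction and 0.968 to 1.09 elsewhere, so fold changes that involve this fraction exceed the ratios of CPM. The summed CPM of 8 astrocyte markers was 16122 to 23943 in the Aldh1l1-NuTRAP positive and 3048 to 3975 in its negative fraction, and that of 8 microglia markers was 3187 to 7630.4 in the Cx3cr1-NuTRAP positive and 372 to 453 in its negative fraction. The Cx3cr1-NuTRAP positive fraction also held 8 neuron markers at 6226 to 9672 CPM, against 8828 to 9433 CPM in its negative fraction, and the astrocyte markers at 2778 to 4309 CPM. Both fractions of mouse 290 and the negative fraction of mouse 155 stood apart in these genes: the SD over the 30 members of the log2 deviation from the other libraries of the group was 0.597, 0.556 and 0.454, against 0.109 to 0.390 in the others. Counts of called members are given with and without them, as are the fold changes of the genes for which mouse 290 is named below. Of the markers of further cell types, the summed CPM of 5 choroid plexus genes was 2904 to 3369.8 in the Aldh1l1-NuTRAP positive and 483 to 634 in its negative fraction, and their part in the results was not tested.

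In the Aldh1l1-NuTRAP line, 22 of the 30 genes were significantly higher in the positive than in the negative fraction, 2 were lower and 6 did not pass the test, at an adjusted p threshold of 0.05 over 13319 genes. Of all genes tested, 26.8% were higher and 24.8% were lower. The median log2 fold change was 1.13 over the members and 0.04 over all genes. The genes that were higher ran from the first steps of synthesis to the last reductase and included all 5 genes of SREBP control. The 2 genes that were lower were Lbr, a sterol reductase of the inner nuclear membrane, and Cyp46a1, the neuronal cholesterol 24-hydroxylase. In bulk fractions such as these, fewer cells of a type and less RNA per cell cannot be told apart. The 8 oligodendrocyte markers summed to 1189 to 1386 CPM in the positive and 6210.4 to 7571 CPM in the negative fraction, and the 4 oligodendrocyte precursor markers to 435 to 534 and 315 to 350.2 CPM. The part of these cells in the members' values was not tested.

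The number of calls moved with the mice in the fit, over all genes as well as over the members. Without mouse 290, 25 members were higher and 3 lower, against 34.6% and 34.3% of all genes. No call was lost, Fdps, Lss and Hsd17b7 joined the higher and Ggps1 the lower genes, and the members' log2 fold changes moved by -0.25 for Nsdhl to 0.35 for Stard4. Without mouse 293 there were 15 higher and 1 lower, against 14.8% and 12.6% of all genes, and Acat2, Pmvk, Lbr, Nsdhl, Insig2, Srebf2, Scap and Npc1 were no longer called (adjusted p = 0.0563 to 0.26). Without mouse 294 there were 14 and 1, against 14.8% and 12%, and Acat2, Pmvk, Nsdhl, Cyp46a1, Insig2, Srebf2, Scap, Nr1h2 and Npc1 were no longer called (adjusted p = 0.0522 to 0.334). With library totals in place of TMM, which lowered the median gene by 0.345 on the log2 scale, 16 members were higher and 2 lower, beside 18.3% and 36.1% of all genes tested, and 33.6% of all calls were higher in place of 51.97%. The members' median was then 0.79 and that of all genes -0.31. With the mouse as a replicate block 25 members were higher and 3 lower, beside 37% and 33.8% of all genes. Fdps, Lss and Hsd17b7 were then called higher and Ggps1 lower.

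In the Cx3cr1-NuTRAP line, 1 gene was higher in the positive than in the negative fraction, 7 were lower and 22 did not pass the test, while 12.8% of all 13776 genes tested were higher and 11.6% were lower. The gene that was higher was Npc2, a lysosomal cholesterol carrier, and the 7 that were lower were Hmgcs1, Idi1, Sqle, Cyp51, Hsd17b7, Cyp46a1 and Srebf1. The median log2 fold change was -0.17 over the members and -0.02 over all genes. The oligodendrocyte markers summed to 1381 to 3672 CPM in the positive and 4941 to 5496 CPM in the negative fraction, and the oligodendrocyte precursor markers to 87.5 to 198 and 272 to 289 CPM. The astrocyte markers, at 2778 to 4309 CPM in the positive and 3756 to 4711 CPM in the negative fraction, were lower in median but overlapped. The part of these cells in the lower values was not tested. Without mouse 155 there were 2 higher and 12 lower members, against 15% and 15.7% of all genes. No call was lost, Ebp joined the higher and Ggps1, Nsdhl, Dhcr7, Srebf2 and Npc1 the lower genes. Without mouse 192 there were 1 and 3, against 8.5% and 4.12%, and without mouse 277 there were 2 and 6, against 9.92% and 6.26%. The genes called in both lines in opposite directions were 5, namely Hmgcs1, Idi1, Sqle, Cyp51 and Srebf1, all higher in the positive fraction of Aldh1l1-NuTRAP mice and lower in that of Cx3cr1-NuTRAP mice. Of the 13112 genes tested in both lines, 5.69% were called in opposite directions, 3.52% in this way round. Cyp46a1 was lower and Npc2 higher in both, as against 9% of all genes called in the same direction. Fractions of one mouse share that mouse, and with the mouse as a replicate block 7 genes were called in opposite directions, those 5 with Insig1 and Hsd17b7, and Npc2 alone was called in the same direction, as against 5.41% and 7.76% of all genes. Without mouse 155, Nsdhl, Dhcr7, Srebf2 and Npc1 were called in opposite directions as well as those 5. Without mouse 192, Sqle and Srebf1 were not, as neither was called in Cx3cr1-NuTRAP mice (adjusted p = 0.0525 and 0.0526). The share of all genes called in opposite directions was not counted without single mice.

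**Figure D1:**
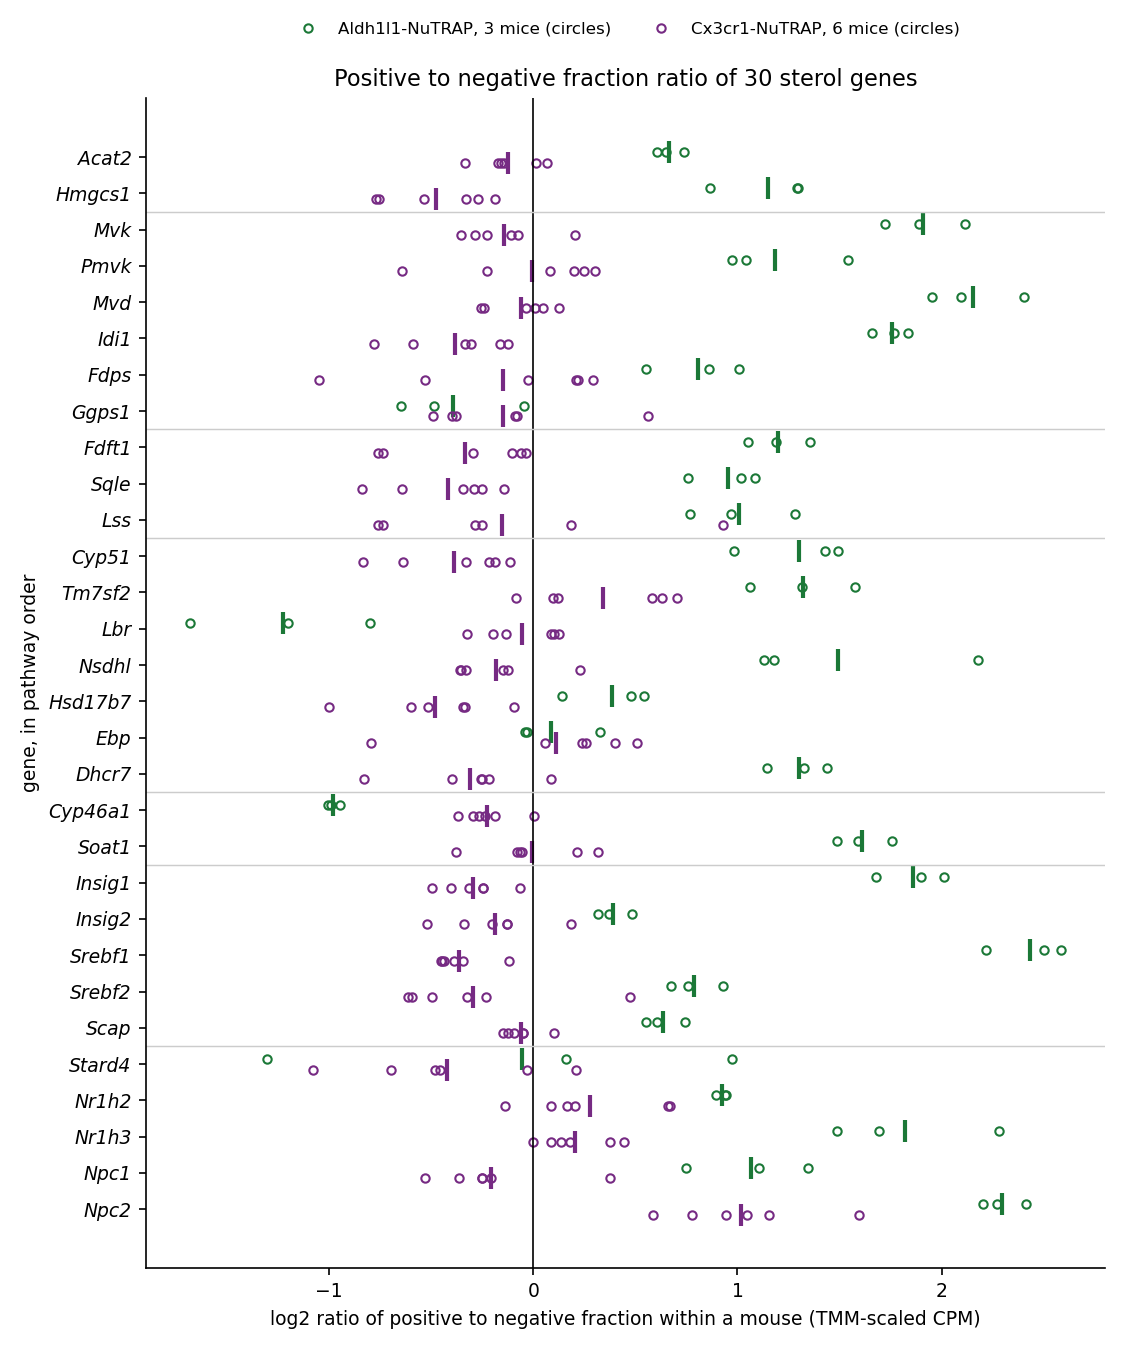
The log2 ratio of positive to negative fraction within each mouse is plotted for the 30 genes in pathway order, with a circle for each mouse and a bar for the mean, for 3 Aldh1l1-NuTRAP and 6 Cx3cr1-NuTRAP mice. Most Aldh1l1-NuTRAP circles lie to the right of 0, with the highest mean, 2.43, for Srebf1, while most Cx3cr1-NuTRAP circles lie near or to the left of 0, except for Npc2.

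The difference between lines was tested directly as the interaction of line and fraction, which was significant for 27 of the 30 genes. In 25 the positive fraction stood higher relative to the negative one in Aldh1l1-NuTRAP than in Cx3cr1-NuTRAP mice and in 2, Lbr and Cyp46a1, it stood lower, while 25.5% of all 13983 genes tested were higher and 29.9% were lower. Ggps1, Ebp and Stard4 did not pass this test. The members' median interaction was 1.19 on the log2 scale and that of all genes was -0.11. With library totals, which lowered the median gene by 0.275, 19 were higher and 2 lower, beside 18.6% and 40.8% of all genes tested, and 31.3% of all calls were higher in place of 46.1%. The calls of Fdps, Lss, Tm7sf2, Hsd17b7, Insig2 and Nr1h2 were lost there (adjusted p = 0.0669 to 0.149). Those of Fdps, Lss and Hsd17b7 were lost without mouse 293 (adjusted p = 0.06 to 0.103) and those of Fdps, Tm7sf2, Hsd17b7 and Nr1h2 without mouse 294 (adjusted p = 0.0527 to 0.0942). Without mouse 290 no call was lost or gained, and without mouse 155 that of Fdps was lost. Line and any difference in time since tamoxifen cannot be told apart in this contrast.

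The pathway opens with Acat2, the cytosolic acetoacetyl-CoA thiolase, and Hmgcs1, the HMG-CoA synthase. Hmgcs1 (chr13:119690462-119708077, mm10) stood at 563, 703 and 727 CPM in the positive fraction of mice 290, 293 and 294, and at 392, 368 and 374 CPM in their negative fraction. In Cx3cr1-NuTRAP mice it was at 189 to 279 CPM, median 248, in the positive and 309 to 378 CPM, median 328, in the negative fraction. The fractions did not overlap in either line, and they were ordered in opposite ways. The log2 fold change was 1.16 ± 0.15 (SE, n = 3 mice, adjusted p = 0.000633) in Aldh1l1-NuTRAP and -0.47 ± 0.09 (SE, n = 6 mice, adjusted p = 0.00164) in Cx3cr1-NuTRAP mice by edgeR. Acat2 stood at 69.3, 59.3 and 70.5 CPM in the positive and 55.9, 49.9 and 53.4 CPM in the negative fraction of the former. Its fractions did not overlap there, and the log2 fold change of 0.67 ± 0.15 (SE, adjusted p = 0.00772) was 0.32 with library totals (adjusted p = 0.101). In Cx3cr1-NuTRAP mice its fractions overlapped, at 35.1 to 50.1 CPM, median 44.5, and 41.1 to 54.5 CPM, median 50.04. Reads of Acat2 may be shared with its close copy Acat3, so its level is uncertain.

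From mevalonate to the isoprenoids, 4 of 6 genes rose in the astrocyte fraction, and Mvd had the largest log2 fold change of the synthesis enzymes. Mvk, which phosphorylates mevalonate, stood at 83.1, 54.1 and 61.6 CPM in the positive and 24.2, 20.99 and 20.9 CPM in the negative fraction of mice 290, 293 and 294. Mvd, which decarboxylates mevalonate diphosphate (chr8:122433596-122443422), stood at 92.8, 92.3 and 107 CPM against 30.3, 27.6 and 25.5 CPM. Both separated the fractions fully in this line, with log2 fold changes of 1.94 ± 0.21 for Mvk and 2.16 ± 0.16 for Mvd (SE, adjusted p = 0.000354 and 7.5e-05). In Cx3cr1-NuTRAP mice Mvk was at 17.6 to 24.6 CPM, median 21.5, in the positive and 20.1 to 26.7 CPM, median 24.1, in the negative fraction. Mvd was at 22.4 to 29.03 CPM, median 25.3, and 24.5 to 29.1 CPM, median 27.1. The fractions overlapped for both genes, and neither passed the test, at log2 fold changes of -0.14 and -0.06 (adjusted p = 0.296 and 0.658).

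Idi1, the isopentenyl diphosphate isomerase, stood at 160.0, 185 and 213 CPM in the positive and 64.1, 66.5 and 78.8 CPM in the negative fraction of Aldh1l1-NuTRAP mice. In Cx3cr1-NuTRAP mice it was at 43.2 to 58.97 CPM, median 51.5, in the positive and 63.6 to 84.2 CPM, median 65.9, in the negative fraction. As with Hmgcs1, the fractions did not overlap in either line and were ordered in opposite ways. The log2 fold change was 1.76 ± 0.17 (SE, adjusted p = 0.000182) in the former and -0.38 ± 0.09 (SE, adjusted p = 0.00709) in the latter. Pmvk, the phosphomevalonate kinase, stood at 129, 83.4 and 86.9 CPM against 83.4, 51.9 and 37.6 CPM in Aldh1l1-NuTRAP mice. Within each mouse the positive fraction was the higher, but the lowest positive value met the highest negative one, that of mouse 290, and the log2 fold change of 1.14 ± 0.34 (SE, adjusted p = 0.0243) missed the threshold with library totals (adjusted p = 0.0675). Without mouse 290 it was 1.24 ± 0.15 (SE, adjusted p = 6.39e-05). In Cx3cr1-NuTRAP mice Pmvk was at 40.6 to 59.5 CPM, median 53.3, and 45.9 to 76.7 CPM, median 49.3, with overlap.

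Fdps, which joins isoprene units into farnesyl diphosphate, stood at 154, 101 and 118 CPM in the positive and 133, 71.3 and 74.03 CPM in the negative fraction of mice 290, 293 and 294. Both fractions were highest in mouse 290 and the groups overlapped. The log2 fold change of 0.77 ± 0.30 (SE) missed the threshold (adjusted p = 0.0674), and it was 0.81 ± 0.12 with the mouse as a replicate block and 0.90 ± 0.11 without mouse 290 (SE, adjusted p = 0.000101 and 2.33e-05). In Cx3cr1-NuTRAP mice it was at 48.7 to 81.7 CPM, median 68.6, and 57.7 to 107 CPM, median 71.01, with overlap. Its interaction passed (adjusted p = 0.0261), but not with library totals (0.111) nor without mouse 293, 294 or 155 (adjusted p = 0.06, 0.0942 and 0.0578). Ggps1, which makes geranylgeranyl diphosphate for protein prenylation, was at 12.4 to 23.8 CPM in the positive and 22.1 to 44.3 CPM in the negative fraction of Aldh1l1-NuTRAP mice. Its log2 fold change of -0.39 ± 0.31 (SE, adjusted p = 0.324) was called lower with the replicate block (adjusted p = 0.0383).

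Of the 3 enzymes from squalene to lanosterol, Fdft1 and Sqle rose in the astrocyte fraction. Fdft1, the squalene synthase, stood at 189.5, 171 and 207 CPM in the positive and 116, 96.3 and 102 CPM in the negative fraction. Sqle, the squalene epoxidase, stood at 90.6, 115 and 118 CPM against 67.9, 69.2 and 73.6 CPM. The fractions were separate for both, with log2 fold changes of 1.20 ± 0.16 and 0.96 ± 0.15 (SE, adjusted p = 0.000785 and 0.00168). In Cx3cr1-NuTRAP mice Sqle was at 37.04 to 60.3 CPM, median 49.9, in the positive and 60.1 to 76.6 CPM, median 67.8, in the negative fraction. The ranges met only at their edges, and the log2 fold change was -0.41 ± 0.10 (SE, adjusted p = 0.0103), which missed the threshold without mouse 192 (adjusted p = 0.0525). Fdft1 was at 56.4 to 105 CPM, median 89.4, and 97.6 to 121 CPM, median 106, with overlap and no call (log2 fold change -0.31, adjusted p = 0.0844).

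Lss, the lanosterol synthase, stood at 13.7, 31.9 and 33.7 CPM in the positive and 10.2, 16.8 and 21.6 CPM in the negative fraction of Aldh1l1-NuTRAP mice. Mouse 290 was the lowest in both fractions, and the log2 fold change of 1.05 ± 0.38 (SE, adjusted p = 0.0525) became 1.04 ± 0.15 with the replicate block and 1.09 ± 0.15 without mouse 290 (SE, adjusted p = 0.000103 and 6.71e-05). In Cx3cr1-NuTRAP mice Lss was at 9.71 to 19.5 CPM, median 15.9, against 9.51 to 21.4 CPM, median 18.3, with overlap. Its interaction (adjusted p = 0.024) missed the threshold with library totals and without mouse 293 (adjusted p = 0.0696 and 0.103).

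Among the 7 enzymes that turn lanosterol into cholesterol, Cyp51, Tm7sf2, Nsdhl and Dhcr7 rose in the astrocyte fraction and Lbr fell. Cyp51, the lanosterol demethylase (chr5:4080674-4104697), stood at 209, 222 and 251 CPM in the positive and 134, 105 and 113 CPM in the negative fraction. In the other line Cyp51 was at 55.9 to 79.7 CPM, median 72.9, in the positive and 85.1 to 116 CPM, median 89.1, in the negative fraction. The fractions did not overlap in either line, and the log2 fold changes were 1.30 ± 0.17 (SE, adjusted p = 0.000639) and -0.39 ± 0.10 (SE, adjusted p = 0.0128).

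Tm7sf2 and Lbr both encode sterol C14 reductases, and they moved in opposite directions in the astrocyte fraction. Tm7sf2 stood at 38.8, 26.5 and 33.6 CPM in the positive and 19.7, 16.2 and 14.1 CPM in the negative fraction of Aldh1l1-NuTRAP mice. Lbr (chr1:181815315-181842401) stood at 6.59, 4.0 and 7.67 CPM against 19.2, 16.8 and 16.9 CPM. The fractions were separate for both. The log2 fold change was 1.33 ± 0.22 for Tm7sf2 and -1.19 ± 0.27 for Lbr (SE, adjusted p = 0.0022 and 0.00786), the latter the lowest log2 fold change of the members and short of the threshold without mouse 293 (adjusted p = 0.0563). In Cx3cr1-NuTRAP mice Lbr was at 13.1 to 17.2 CPM, median 15.6, against 15.1 to 17.7 CPM, median 16.2, with overlap (log2 fold change -0.05, adjusted p = 0.725). Tm7sf2 was at 13.9 to 26.5 CPM, median 19.6, against 13.5 to 17.6 CPM, median 15.2, and did not pass the test there (0.40 ± 0.17, SE, adjusted p = 0.112). In the positive fraction of that line it stood at 25.6, 23.6 and 26.5 CPM in mice 155, 192 and 194 and at 13.9, 14.6 and 15.7 CPM in mice 209, 210 and 277. In the same order of mice the neuron markers summed to 6717, 7526 and 6226 CPM and to 9672, 9207 and 8749 CPM, and the astrocyte markers to 3359.9, 3323 and 2778 CPM and to 4133, 4309 and 4244 CPM. Both marker sums separated the same sets of mice. In input, though not in the positive fraction, these sets also differed in the sign of a correlation with exon length, given at the end. The part of these cells, or of that division, in the spread of Tm7sf2 was not tested.

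Nsdhl, which takes part in removing the methyl groups at carbon 4, stood at 30.4, 37.9 and 40.5 CPM in the positive and 8.45, 21.5 and 23.3 CPM in the negative fraction of Aldh1l1-NuTRAP mice. Dhcr7, the last reductase, stood at 57.2, 83.5 and 92.05 CPM against 32.7, 39.5 and 46.2 CPM. Mouse 290 was the lowest for both genes in both fractions, yet the fractions did not overlap, with log2 fold changes of 1.37 ± 0.34 and 1.32 ± 0.21 (SE, adjusted p = 0.013 and 0.00192). Without mouse 290 these were 1.12 ± 0.12 and 1.35 ± 0.11 (SE, adjusted p = 1.08e-05 and 1.68e-06). The call of Nsdhl was lost without mouse 293 and without mouse 294 (adjusted p = 0.07 and 0.0522). In Cx3cr1-NuTRAP mice Nsdhl was at 16.8 to 22.1 CPM, median 19.2, against 19.4 to 23.4 CPM, median 22.5, and Dhcr7 at 23.3 to 38.4 CPM, median 34.5, against 32.7 to 46.9 CPM, median 42.2. Both overlapped and neither passed the test there (adjusted p = 0.158 and 0.0738). Without mouse 155 both were called lower in the positive fraction of that line.

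Hsd17b7, a sterol 3-keto reductase, was lower in the Cx3cr1-NuTRAP positive fraction and not called in the astrocyte fraction. It was at 11.02 to 19.97 CPM, median 17.5, in the former and 18.6 to 26.1 CPM, median 24.5, in the negative fraction of that line. In Aldh1l1-NuTRAP mice it stood at 14.3, 32.3 and 33.6 CPM against 16.4, 28.4 and 30.4 CPM. The fractions overlapped in both lines, and the log2 fold change was -0.47 ± 0.13 (SE, adjusted p = 0.0197) in Cx3cr1-NuTRAP and 0.43 ± 0.35 (SE, adjusted p = 0.333) in Aldh1l1-NuTRAP mice, the latter 0.41 ± 0.14 with the replicate block and 0.48 ± 0.12 without mouse 290 (SE, adjusted p = 0.0195 and 0.00407). The call in Cx3cr1-NuTRAP mice was lost without mouse 192 and without mouse 194 (adjusted p = 0.0537 and 0.0717). Ebp, the sterol isomerase, was not called in either line, at 16.3 to 24.7 CPM against 21.3 to 32.2 CPM in Aldh1l1-NuTRAP and 20.4 to 28.2 CPM against 19.2 to 36.5 CPM in Cx3cr1-NuTRAP mice. Without mouse 155, the highest in the negative fraction, it was called higher in the positive fraction of Cx3cr1-NuTRAP mice.

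The summed CPM of the 18 synthesis enzymes was 2076 ± 157 (SD, n = 3) in the positive and 1184 ± 71.5 (SD, n = 3) in the negative fraction of Aldh1l1-NuTRAP mice. It was 876 ± 95.9 (SD, n = 6) in the positive, 1093 ± 80.1 (SD, n = 6) in the negative and 1036 ± 63.2 (SD, n = 6) in the input fraction of Cx3cr1-NuTRAP mice, and 1209 ± 54.1 (SD, n = 5) in their whole tissue. The Aldh1l1-NuTRAP positive libraries lay above every other library. In these CPM, which are not TMM-scaled, the Cx3cr1-NuTRAP positive libraries lay below every other one. The margin was narrow, with 965 in their highest library and 979 in the lowest input library. Hmgcs1 alone held a mean of 664 CPM in the Aldh1l1-NuTRAP and 239 CPM in the Cx3cr1-NuTRAP positive fraction. Against the negative fraction of the latter line, 5 of the 18 enzymes were called lower.

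**Figure D2:**
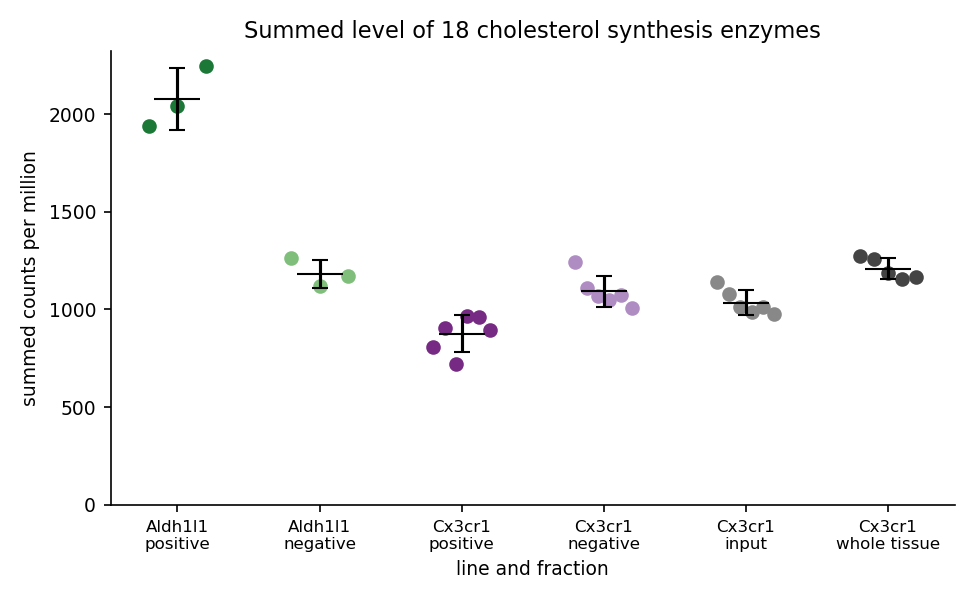
The summed CPM of the 18 synthesis enzymes are plotted for each library (points) with the mean and SD (bars) for the 6 groups of line and fraction. The 3 Aldh1l1-NuTRAP positive libraries sit between 1938 and 2247, and the 6 Cx3cr1-NuTRAP positive libraries between 719 and 965.

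Cyp46a1 (chr12:108334381-108362234), which turns cholesterol over in neurons, stood at 70.04, 99.3 and 90.3 CPM in the positive and 176, 246 and 229 CPM in the negative fraction of Aldh1l1-NuTRAP mice. In Cx3cr1-NuTRAP mice it was at 158 to 175 CPM, median 169, against 180.0 to 221 CPM, median 198. The positive fraction lay wholly below the negative in both lines, with log2 fold changes of -0.98 ± 0.19 (SE, adjusted p = 0.0042; 0.0616 without mouse 294) and -0.23 ± 0.07 (SE, adjusted p = 0.0233). The latter did not pass with the replicate block (adjusted p = 0.0697), nor in 7 other of 14 alternative settings, where the adjusted p reached 0.113. The neuron markers moved with it, with a sum of 2046 to 2554 CPM in the Aldh1l1-NuTRAP positive against 9223 to 9451 CPM in its negative fraction, and their part in the result was not tested. Soat1, the sterol O-acyltransferase that stores cholesterol as esters, stood at 60.2, 56.3 and 55.7 CPM against 25.3, 21.3 and 24.98 CPM in Aldh1l1-NuTRAP mice. The fractions were well apart (log2 fold change 1.61 ± 0.16, SE, adjusted p = 0.000192). In Cx3cr1-NuTRAP mice they overlapped, at 17.9 to 24.6 CPM, median 19.6, and 18.8 to 24.3 CPM, median 20.7 (adjusted p = 0.994).

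All 5 genes of SREBP control were called higher in the astrocyte fraction, and Srebf1 had the largest log2 fold change of the 30 members. The calls of Insig2 and Srebf2 were lost under 5 of 11 alternatives each, and that of Scap under 3. Srebf1 (chr11:60199089-60220604), which encodes SREBP-1 and favours fatty acid genes, stood at 271, 254 and 232 CPM in the positive and 73.8, 54.2 and 51.6 CPM in the negative fraction. In the other line Srebf1 was at 51.3 to 72.1 CPM, median 64.3, against 72.6 to 98.2 CPM, median 81.5. The fractions did not overlap in either line, though only just in the latter, and the log2 fold changes were 2.42 ± 0.21 (SE, adjusted p = 0.000127) and -0.37 ± 0.09 (SE, adjusted p = 0.00994; 0.0526 without mouse 192). Srebf2, which encodes the SREBP that favours cholesterol genes, stood at 149, 271 and 245 CPM against 112, 182 and 194 CPM in Aldh1l1-NuTRAP mice. Mouse 290 was the lowest in both fractions and the groups overlapped. The log2 fold change was 0.79 ± 0.28, and 0.77 ± 0.09 without mouse 290 (SE, adjusted p = 0.046 and 3.21e-05). The call was lost with RLE scaling, library totals or a filter at 100 counts, and without mouse 293 or 294 (adjusted p = 0.0523, 0.228, 0.0723, 0.214 and 0.147). In Cx3cr1-NuTRAP mice Srebf2 was at 133 to 179 CPM, median 152, against 118 to 223 CPM, median 205, where the lowest negative value was that of mouse 155. It was not called there, but without that mouse it was called lower.

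Insig1 (chr5:28071412-28078662), the INSIG whose transcript is itself an SREBP target, stood at 283, 330.3 and 359 CPM in the positive and 112, 114 and 112 CPM in the negative fraction of Aldh1l1-NuTRAP mice. The fractions were far apart and the negative libraries nearly equal, with a log2 fold change of 1.87 ± 0.15 (SE, adjusted p = 9.66e-05). In the other line Insig1 was at 67.1 to 115 CPM, median 92.7, against 98.3 to 124 CPM, median 115, with overlap. There the log2 fold change of -0.28 ± 0.11 (SE, adjusted p = 0.0727) became -0.30 ± 0.08 (SE, adjusted p = 0.0321) with the replicate block. Insig2, its relative, stood at 54.2, 55.7 and 60.2 CPM against 55.1, 55.4 and 54.3 CPM in Aldh1l1-NuTRAP mice. The CPM overlapped, and the log2 fold change of 0.39 ± 0.13 (SE, adjusted p = 0.0389) was 0.05 with library totals (adjusted p = 0.794). The call was also lost with no filter and with the filter at 100 counts (adjusted p = 0.073 and 0.0757). In Cx3cr1-NuTRAP mice Insig2 was at 46.95 to 59.6 CPM, median 50.8, against 52.9 to 69.3 CPM, median 59.9. Scap, the escort, stood at 113, 128 and 107 CPM against 97.6, 98.1 and 88.6 CPM in Aldh1l1-NuTRAP mice, with no overlap and a log2 fold change of 0.64 ± 0.15 (SE, adjusted p = 0.0097; 0.29, adjusted p = 0.134 with library totals). In Cx3cr1-NuTRAP mice Scap was at 87.7 to 99.8 CPM, median 93.05, against 96.7 to 106 CPM, median 99.1, with overlap.

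**Figure D3:**
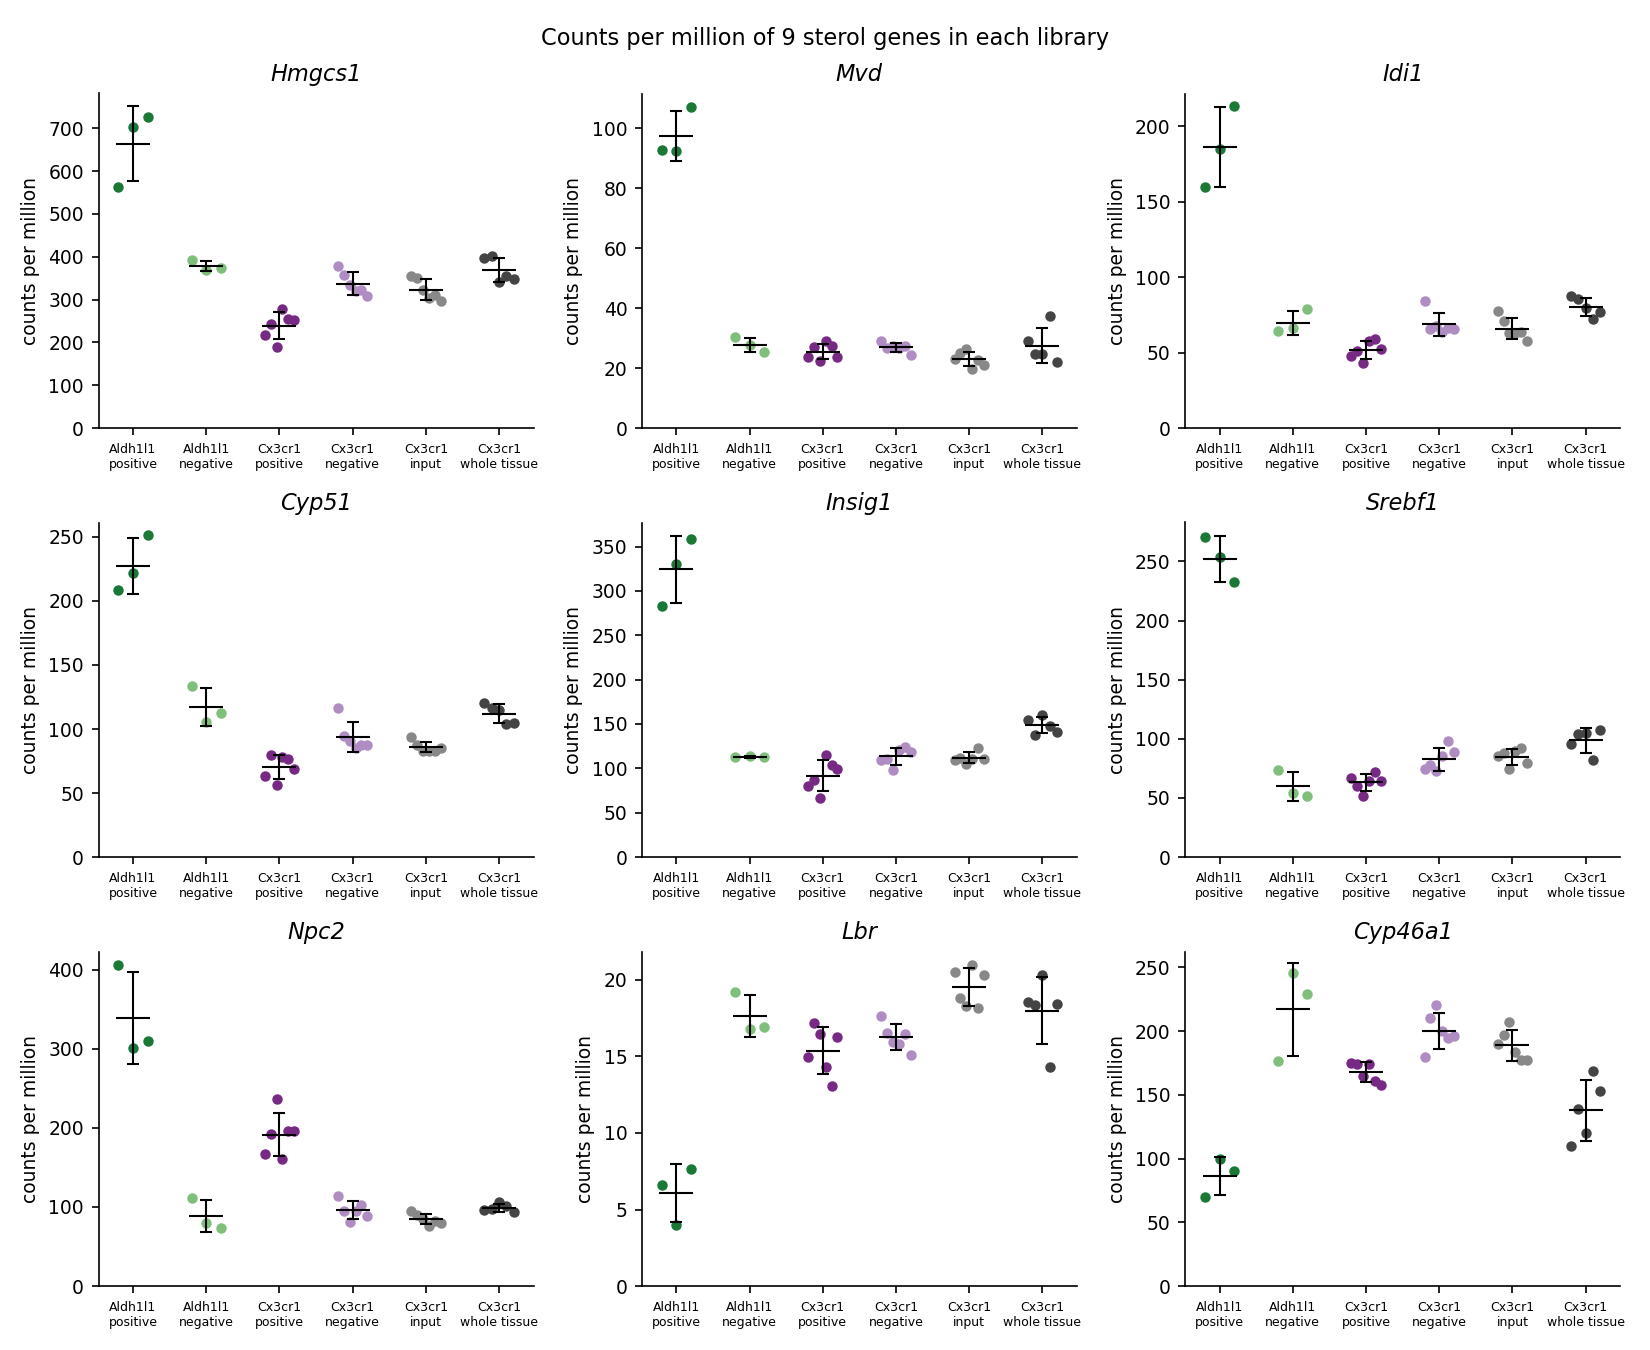
CPM of 9 of the genes are plotted for each library (points) with the mean and SD (bars) in the 6 groups of line and fraction. Hmgcs1, Mvd, Idi1, Cyp51, Insig1 and Srebf1 stand highest in the 3 Aldh1l1-NuTRAP positive libraries, Npc2 is high in the positive fraction of both lines, and Lbr and Cyp46a1 stand lowest in the Aldh1l1-NuTRAP positive libraries.

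Of the 5 genes of transport and nuclear receptors, 4 were higher in the astrocyte fraction, and Npc2 was the one member higher in the positive fraction of both lines. Npc2 (chr12:84754559-84773112) stood at 406, 300.5 and 310.4 CPM in the positive and 112, 79.8 and 73.5 CPM in the negative fraction of Aldh1l1-NuTRAP mice. In the other line Npc2 was at 161 to 237 CPM, median 194, against 81.3 to 114 CPM, median 94.9. The fractions did not overlap in either line, with log2 fold changes of 2.29 ± 0.24 (SE, adjusted p = 0.00029) and 1.02 ± 0.11 (SE, adjusted p = 4.77e-06). Its partner Npc1, the membrane protein of the same export route, stood at 62.7, 136 and 119.7 CPM against 47.3, 68.6 and 70.1 CPM in Aldh1l1-NuTRAP mice. Mouse 290 was the lowest in both fractions, the groups overlapped, and the log2 fold change was 1.12 ± 0.30 (SE, adjusted p = 0.0159; 0.0658 with library totals), or 1.19 ± 0.10 without mouse 290 (SE, adjusted p = 2.04e-06). In Cx3cr1-NuTRAP mice Npc1 was at 62.6 to 75.01 CPM, median 69.5, against 59.6 to 91.8 CPM, median 85.4, and was not called (adjusted p = 0.109). Without mouse 155, the lowest in the negative fraction, it was called lower.

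Nr1h3, the liver X receptor alpha, stood at 13.2, 9.87 and 11.5 CPM in the positive and 5.88, 2.49 and 4.42 CPM in the negative fraction of Aldh1l1-NuTRAP mice. Nr1h2, the liver X receptor beta, stood at 59.1, 76.2 and 74.3 CPM against 40.3, 50.98 and 48.7 CPM. The fractions were separate for both, with log2 fold changes of 1.80 ± 0.34 and 0.93 ± 0.16 (SE, adjusted p = 0.00394 and 0.00254). The call of Nr1h2 was lost without mouse 294 (adjusted p = 0.0529), and its interaction was lost there and with library totals (adjusted p = 0.0527 and 0.149). In Cx3cr1-NuTRAP mice Nr1h3 was at 5.99 to 9.12 CPM, median 6.45, against 5.49 to 7.28 CPM, median 6.0, and Nr1h2 at 54.8 to 84.2 CPM, median 63.8, against 48.4 to 60.99 CPM, median 55.9. Neither passed the test there (adjusted p = 0.246 and 0.0646). Stard4, a soluble sterol carrier, was not called in either line, and stood at 4.47, 15.6 and 17.6 CPM in the positive and 14.2, 10.1 and 19.8 CPM in the negative fraction of Aldh1l1-NuTRAP mice, lowest in the positive fraction of mouse 290. Its log2 fold change there was 0.12 ± 0.48, and 0.47 ± 0.31 without mouse 290 (SE, adjusted p = 0.846 and 0.217).

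Against the input, the Cx3cr1-NuTRAP positive fraction showed 6 members higher, 16 lower and 8 not called, while 23.3% of all 13838 genes tested were higher and 25.6% were lower. The members' median log2 fold change was -0.21 and that of all genes 0.00. This comparison shares the positive libraries with the one against the negative fraction, and the 7 genes lower there were among the 16 lower here. The 6 genes higher than in input were Pmvk, Tm7sf2, Ebp, Nr1h2, Nr1h3 and Npc2, with Npc2 at a log2 fold change of 1.19 ± 0.09 (SE, adjusted p = 1.69e-07). The lowest values were those of Stard4 at -0.89 ± 0.18, Hsd17b7 at -0.70 ± 0.12, Lss at -0.61 ± 0.16 and Srebf2 at -0.53 ± 0.07 (SE, adjusted p = 0.00118, 0.000301, 0.00537 and 4.84e-05). In input the oligodendrocyte markers summed to 4710.3 to 5403 CPM, the oligodendrocyte precursor markers to 274 to 311 CPM and the astrocyte markers to 4449.9 to 4823 CPM, all wholly above the positive fraction, and their part in the lower values was not tested. Without mouse 155 the calls of Tm7sf2, Insig1, Insig2 and Nr1h2 were lost, which left 4 higher and 14 lower, beside 23.8% and 25.9% of all genes. Without mouse 277 there were 3 higher and 12 lower, beside 18.2% and 20.9%. With the replicate block Cyp46a1, Soat1, Insig2, Nr1h2 and Nr1h3 no longer passed (adjusted p = 0.0678, 0.0669, 0.109, 0.0509 and 0.0819), which left 4 higher and 13 lower, beside 19% and 23.9%.

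Mouse 194 had the highest microglia markers of the Cx3cr1-NuTRAP positive fraction, at 7630.4 CPM against 3187 to 4993 CPM in the other 5 mice. The same library held the lowest value of the 6 for 15 members, among them Hmgcs1, Idi1, Fdft1, Sqle, Cyp51, Dhcr7, Insig1, Srebf1 and Srebf2, and the highest value for 8, which were Npc2, Nr1h2, Nr1h3, Tm7sf2, Lss, Ggps1, Soat1 and Scap. It also held the lowest value of 29.2% and the highest value of 24.2% of the 13409 genes above 20 counts in each of these libraries. Without mouse 194 there were 1 higher and 5 lower against the negative fraction, beside 8.34% and 6.29% of all genes, and 5 higher and 13 lower against input, beside 22.9% and 21.3%. The oligodendrocyte markers were lowest in this library, at 1381 CPM against 2975 to 3672 CPM. So were the astrocyte markers, at 2778 CPM against 3323 to 4309 CPM, and the neuron markers, at 6226 CPM against 6717 to 9672 CPM, and the part of other cell types in these values was not tested.

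The positive fractions of both lines were also compared directly, with 24 members higher in Aldh1l1-NuTRAP, 2 lower and 4 not called, while 30.6% of all 13676 genes tested were higher and 33.1% were lower. The members' median log2 fold change was 1.12 and that of all genes was -0.08. The largest were Srebf1 at 2.31 ± 0.12, Mvd at 2.25 ± 0.11, Idi1 at 2.16 ± 0.12, Insig1 at 2.14 ± 0.15 and Cyp51 at 2.00 ± 0.12 (SE, adjusted p = 4.8e-08, 3.77e-08, 8.18e-08, 4.39e-07 and 1.73e-07). Fdps, Lss and Hsd17b7, which were not called between the fractions of Aldh1l1-NuTRAP mice, were higher here, at 1.23 ± 0.18, 1.10 ± 0.28 and 0.98 ± 0.25 (SE, adjusted p = 0.000159, 0.00549 and 0.0053). Ggps1, Ebp, Stard4 and Nr1h2 were not called. Without mouse 290 no call was lost, Stard4 and Nr1h2 were called as well, and there were 26 higher and 2 lower, beside 29.3% and 31.1% of all genes. Without the positive library of mouse 155 the counts were 24 and 2, beside 29.1% and 30.5%. With library totals, which lowered the median gene by 0.310, 23 members were higher and 3 lower, beside 21.1% and 46.1% of all genes tested, and 31.4% of all calls were higher in place of 48.04%. The neuron markers summed to 2046 to 2554 CPM in Aldh1l1-NuTRAP and 6226 to 9672 CPM in Cx3cr1-NuTRAP mice, and the choroid plexus markers to 2904 to 3369.8 and 215 to 1035 CPM. In the same order the oligodendrocyte precursor markers summed to 435 to 534 and 87.5 to 198 CPM. The 4 ependymal markers summed to 41.5 to 54.2 and 13.4 to 24.9 CPM. The part of these cells in the differences was not tested. Line and any difference in time since tamoxifen cannot be told apart here, nor between the negative fractions. These positive libraries enter the comparisons above as well.

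The negative fractions of the lines differed in 0 of the 30 genes by edgeR, where 5 members and 1827 of all 13613 genes had an unadjusted p under 0.05, and DESeq2 called 0 members too. Of all genes, 0.125% were higher and 0.125% were lower. The lowest member values were those of Nr1h3 at -0.53 ± 0.24 and Srebf1 at -0.43 ± 0.14 (log2 fold change ± SE, adjusted p = 0.379 and 0.209). Without mouse 290 Srebf1 was called, at -0.64 ± 0.11 (SE, adjusted p = 0.0395), beside 0.436% higher and 0.515% lower of all genes. Without mouse 155 no member was called, beside 0.32% and 0.349%.

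The steps of handling were compared within the Cx3cr1-NuTRAP line. Between negative fraction and input, 0 members were higher and 1, Lbr, was lower (log2 fold change -0.26 ± 0.07, SE, adjusted p = 0.0444), while 1.41% of all 13748 genes were higher and 4.7% were lower. At an unadjusted p under 0.05 there were 12 members and 4376 of all genes, and DESeq2 called 3 members higher and 5 lower, beside 5.55% and 9.36% of all genes. With the replicate block 8 were higher and 7 lower, against 17.7% and 19.5% of all genes. Without mouse 155 6 were higher and 7 lower, against 12.8% and 14.8% of all genes. Lbr was not called without mouse 192, 194, 209, 210 or 277 (adjusted p = 0.0935, 0.0969, 0.15, 0.168 and 0.131), where no member was called and the calls over all genes numbered 0, 3, 0, 0 and 0. The higher ones with the block were Pmvk, Mvd, Fdps, Fdft1, Cyp51, Ebp, Cyp46a1 and Npc2, from 0.09 for Cyp46a1 to 0.35 for Pmvk on the log2 scale. The lower ones were Ggps1, Lss, Lbr, Hsd17b7, Soat1, Stard4 and Npc1, with Stard4 the lowest at -0.47 ± 0.07 (SE, adjusted p = 0.000266).

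Between input and whole tissue, 2 members were higher in input, 12 were lower and 16 were not called, while 15.7% of all 13608 genes were higher and 14.6% were lower. The members' median log2 fold change was -0.20 and that of all genes 0.00. Cyp46a1 at 0.45 ± 0.09 and Nr1h3 at 0.53 ± 0.18 were higher in input (SE, adjusted p = 0.00247 and 0.0342). Nr1h3 passed the filter on counts only through input, the group where it was higher. Its lowest count in whole tissue was 12, so its value is a description. The 12 lower were Acat2, Hmgcs1, Idi1, Fdft1, Sqle, Cyp51, Nsdhl, Hsd17b7, Insig1, Srebf1, Stard4 and Npc2, from -0.58 for Stard4 to -0.20 for Hmgcs1. Insig1 was at 105 to 123 CPM, median 111, in input and at 138 to 160.3 CPM, median 148, in whole tissue, with no overlap (-0.42 ± 0.06, SE, adjusted p = 0.000172). With the replicate block Hsd17b7, Srebf1 and Nr1h3 no longer passed (adjusted p = 0.0562, 0.112 and 0.0978) and Fdps and Dhcr7 did (adjusted p = 0.0151 and 0.0472). Without mouse 155, which has no whole tissue library, Nr1h3 was not called and Fdps and Dhcr7 were, with 1 higher and 14 lower, beside 16.5% and 15% of all genes. Without mouse 209 there were 2 higher and 7 lower, beside 9.71% and 9.29%. The summed oligodendrocyte markers were 4710.3 to 5403 CPM in input and 6544 to 8861 CPM in whole tissue, and the 5 endothelial ones 80.4 to 98.96 and 134 to 256 CPM. The astrocyte markers were 4449.9 to 4823 and 4838 to 5283 CPM, and the 5 pericyte and smooth muscle markers 37.9 to 51.2 and 69.7 to 103 CPM. These sums were all wholly lower in input, while the neuron markers, at 8527 to 9007 CPM in input and 7150.3 to 8635 CPM in whole tissue, were higher in median. The part of these cells in the differences was not tested.

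**Figure D4:**
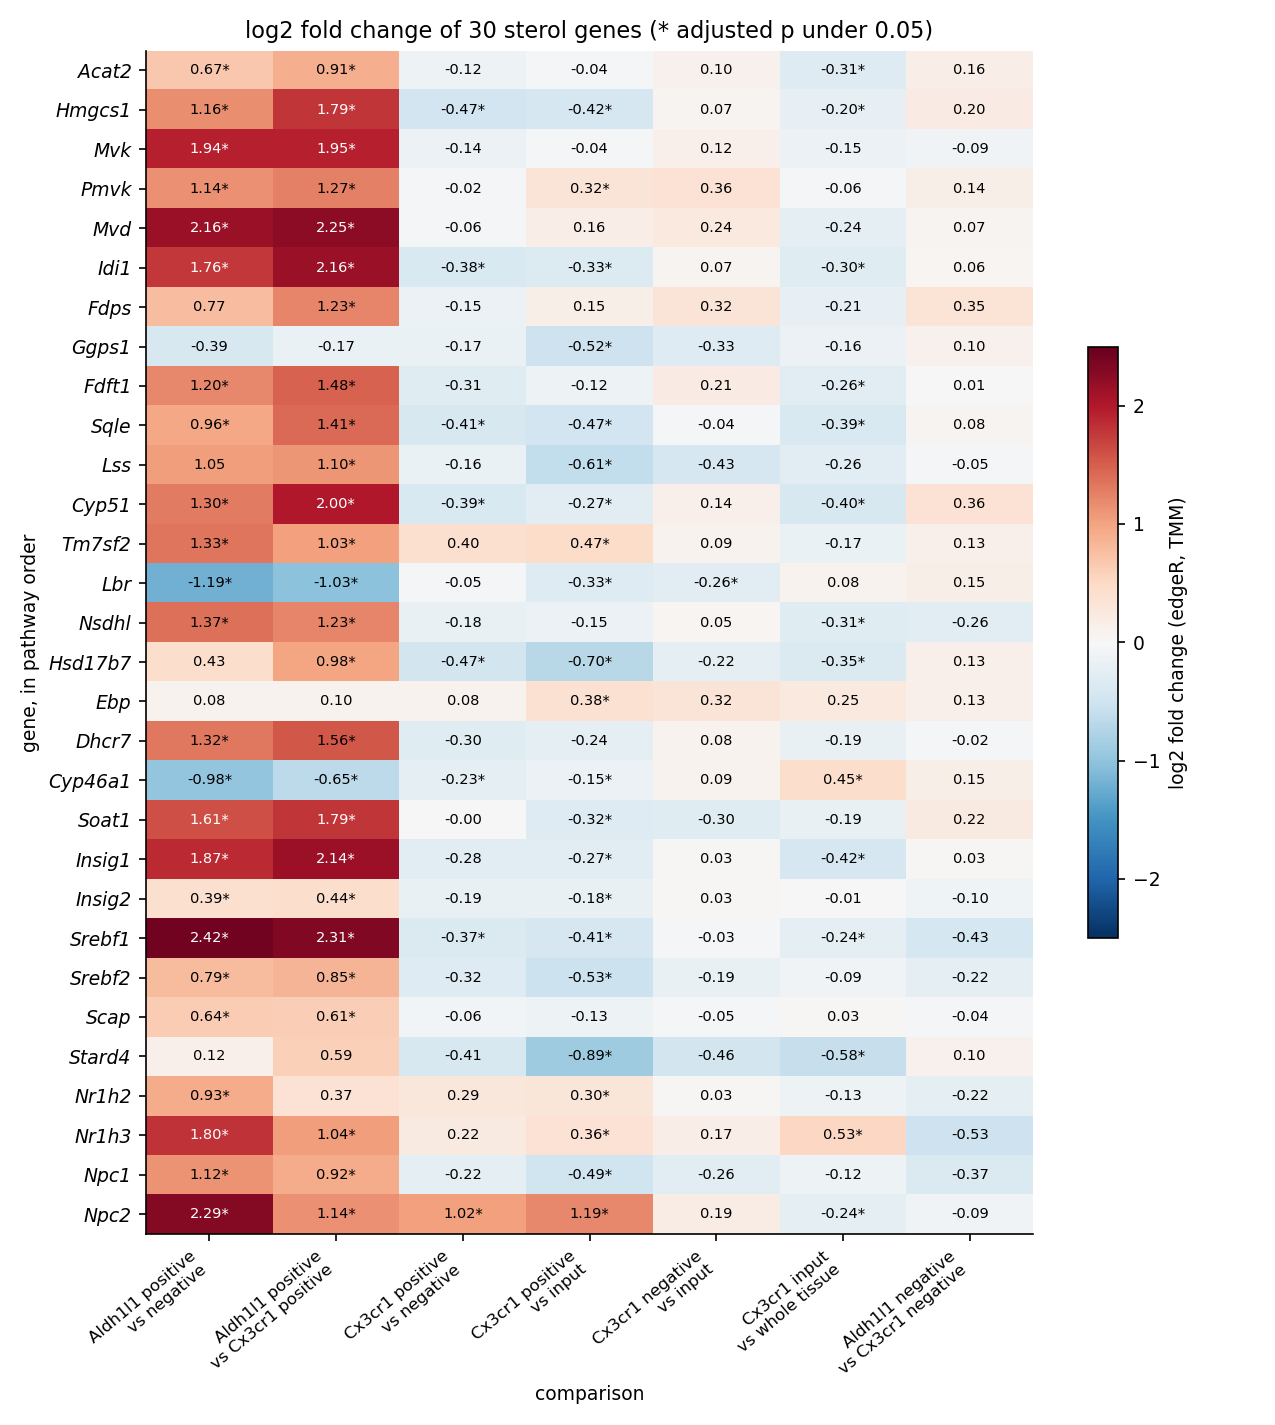
The log2 fold change of the 30 genes in pathway order is shown as colour and number for 7 comparisons, with an asterisk where the adjusted p is under 0.05. Values reach 2.42 for Srebf1 between the Aldh1l1-NuTRAP fractions and 2.31 between the positive fractions of the lines, and the comparison of the negative fractions has no asterisk.

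Levels were compared between genes per kilobase of merged exon length. Hmgcs1 ranked 1 of the 30 in every group, at 145 CPM per kb in the Aldh1l1-NuTRAP positive and 52.1 CPM per kb in the Cx3cr1-NuTRAP positive fraction. Cyp46a1 ranked 2 in the negative fractions of both lines, at 66.03 and 60.9 CPM per kb, and 12, at 26.3 CPM per kb, in the Aldh1l1-NuTRAP positive fraction. Insig1 ranked 2 there, at 105 CPM per kb. Lbr ranked 30 there, at 1.28 CPM per kb, and 25 or 26 in the other groups. The merged length includes exons that the libraries may not use, so the order is approximate.

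A further 42 genes of the same biology, not members, were counted by role, and 38 of them were tested. Between the Aldh1l1-NuTRAP fractions 12 were higher and 5 lower, with a median log2 fold change of 0.22, beside 26.8% and 24.8% of all genes tested. Between the Cx3cr1-NuTRAP fractions 5 were higher and 9 lower, with a median of -0.01, beside 12.8% and 11.6% of all genes. Of 5 other synthesis genes, 4 were higher in the astrocyte fraction, 2 fell in the positive fraction of Cx3cr1-NuTRAP mice, and all 5 were higher in the interaction, beside 25.5% of all genes. The 4 largest changes in the astrocyte fraction were those of Lcat at 3.58 ± 0.19, which esterifies cholesterol on lipoproteins, Apoe at 2.86 ± 0.36, the main apolipoprotein of astrocytes, Cyp7b1 at 2.01 ± 0.24, an oxysterol hydroxylase, and Sc4mol at 1.82 ± 0.21, the sterol C4 methyl oxidase (log2 fold change ± SE, adjusted p = 3.69e-05, 0.000647, 0.000462 and 0.000431). The 4 largest in the Cx3cr1-NuTRAP positive fraction were those of Mylip at 1.44 ± 0.14, an E3 ligase for lipoprotein receptors, Cyp39a1 at -0.75 ± 0.17, an oxysterol hydroxylase, Sc5d at -0.48 ± 0.08, a sterol desaturase, and Nceh1 at -0.48 ± 0.13, a cholesterol ester hydrolase (adjusted p = 3.6e-06, 0.00589, 0.000935 and 0.0191).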

How the data were processed

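RNA-seq of TRAP fractions, input and whole tissue was taken from 1 table of the whole series. The authors prepared stranded polyA libraries from 25 ng of RNA, sequenced them paired-end and processed them in Strand NGS 3.1 against mm10. The deposited raw columns hold expected counts (82.4% of the nonzero values were not whole), which were rounded here. The log2 columns that the authors normalized with DESeq were deposited as well and were not used, and 0 value columns were without a sample. Samples were grouped by the labels. The members and all gene lists were chosen with earlier results of these data known.

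Genes whose counts exceeded 20 in all libraries of 1 or more groups were tested by edgeR's quasi-likelihood test (two-sided, robust, TMM), with the groups of each comparison in the fit and Benjamini-Hochberg adjustment over all genes tested, threshold 0.05, for 8 contrasts including the interaction. All 30 members passed the filter in each. The code was tested on simulated data. Alternatives were RLE scaling, library totals, DESeq2, no filter, a filter at 100 counts, all groups in one fit, a minimum fold change, TMM-scaled CPM, leaving out each mouse, and the mouse as a replicate block. Same-numbered libraries come from the same animal per the labels; their deviations from the group means correlated above 0.1 in 3 of 3 Aldh1l1-NuTRAP pairs, 5 of 6 negative and input pairs, 3 of 6 positive and input pairs, 3 of 6 positive and negative pairs and 0 of 5 input and whole tissue pairs. Values were named for members called in the interaction, called in opposite directions, or with the 2 largest or smallest fold changes, with other members by range, and for the 4 other sterol genes with the largest called change per line; 1 gene of that second list is not reported here and was left out of its counts. Promoter windows came from RefSeq. Depth was 11910851 to 22308992 counts in the Aldh1l1-NuTRAP positive and 8782235 to 25137834 in its negative fraction, 15486605 to 26857866 in the TRAP fractions and input of the other line, and 4260949 to 25026611 in whole tissue. Python 3.11.15, pandas 2.3.3, numpy 2.4.6, R 4.3.3, edgeR 4.0.16, limma 3.58.1 and DESeq2 1.42.0 were used.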

Additional observations from a re-analysis of the deposited data

Results flagged for a closer look

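In the negative fraction of the Cx3cr1-NuTRAP line, mouse 155 lay apart from the other 5 mice by a Dixon gap test at the 95% level for 8 genes. It was the highest for Pmvk at 76.7 CPM, Idi1 at 84.2 CPM, Fdps at 107 CPM, Cyp51 at 116 CPM and Ebp at 36.5 CPM. It was the lowest for Srebf2 at 118 CPM, Stard4 at 8.15 CPM and Npc1 at 59.6 CPM. In whole tissue, mouse 210, the library with the fewest counts, was the lowest for Lss at 22.9 CPM. These were 9 of 120 groups examined, and chance gives about 1 in 20.

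The change from negative to positive fraction differed between the lines, by the interaction term in edgeR, for 27 members. Among the synthesis enzymes the difference, Aldh1l1-NuTRAP minus Cx3cr1-NuTRAP on the log2 scale, was 0.75 for Acat2, 1.59 for Hmgcs1, 2.04 for Mvk, 1.12 for Pmvk, 2.17 for Mvd, 2.10 for Idi1, 0.88 for Fdps and 1.47 for Fdft1. Further along it was 1.33 for Sqle, 1.16 for Lss, 1.64 for Cyp51, 0.89 for Tm7sf2, -1.18 for Lbr, 1.49 for Nsdhl, 0.85 for Hsd17b7 and 1.58 for Dhcr7. For turnover and storage it was -0.80 for Cyp46a1 and 1.57 for Soat1. For SREBP control it was 2.11 for Insig1, 0.54 for Insig2, 2.75 for Srebf1, 1.07 for Srebf2 and 0.65 for Scap. For transport and receptors it was 0.59 for Nr1h2, 1.55 for Nr1h3, 1.29 for Npc1 and 1.22 for Npc2.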

How the results depend on the processing

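No called member reversed its direction under any alternative run. Of the called members' values under alternatives, 27 of 264 fell short of the threshold between the Aldh1l1-NuTRAP fractions, 12 of 112 between positive and negative fraction and 58 of 307 between positive fraction and input of the Cx3cr1-NuTRAP line, 40 of 195 between input and whole tissue, 8 of 14 between negative fraction and input, 1 of 416 between the positive fractions of the lines and 14 of 459 in the interaction. Leaving out each mouse or library gave 14 to 25 higher and 1 to 3 lower between the Aldh1l1-NuTRAP fractions, 1 to 2 and 3 to 12 between positive and negative, 3 to 5 and 12 to 14 between positive and input, 0 to 6 and 0 to 7 between negative and input, and 1 to 2 and 7 to 14 between input and whole tissue. It gave 0 higher and 0 to 1 lower between the negative fractions of the lines, the 1 lower arising without mouse 290, and 21 to 25 higher with 2 lower in the interaction. DESeq2 called 2 higher between positive and negative fraction, beside 15.1% of all genes. It called 3 higher and 5 lower between negative fraction and input, beside 5.55% and 9.36%. All groups in one fit gave 3 higher between positive and negative fraction, beside 15.7% of all genes. That fit gave 0 lower between negative fraction and input, beside 0.429%. Between input and whole tissue it gave 1 higher and 5 lower, beside 8.58% and 9.43%. With no filter, or with a minimum fold change, 0 were lower between negative fraction and input, beside 1.08% and 2.85% of all genes. Between input and whole tissue the minimum fold change gave 5 lower, beside 9.74%. The filter at 100 counts gave 1 higher there, beside 17.1%. The replicate block gave 25 higher and 3 lower between the Aldh1l1-NuTRAP fractions, beside 37% and 33.8% of all genes. It gave 8 and 7 between negative fraction and input, beside 17.7% and 19.5%. Between input and whole tissue it gave 1 and 12, beside 12.5% and 9.85%, and in the interaction 25 and 2, beside 27.1% and 30.9%. Beyond the changes given beside the results it changed no other call. The causes were not tested. TMM-scaled CPM moved the mean by more than 1 SD for 26 of 30 members in the Aldh1l1-NuTRAP positive fraction, all upward. The lowest count of a member in any library was 12, so counting error is largest for the low genes.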

Other observations

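In the input of the Cx3cr1-NuTRAP line, the Spearman rho across the 30 members between merged exon length and the log2 deviation from the other libraries of the group was -0.52, -0.66 and -0.56 in mice 155, 192 and 194, and 0.69, 0.56 and 0.43 in mice 209, 210 and 277. It was -0.46 and -0.38 in the positive and negative fractions of mouse 290 and -0.49 in the negative fraction of mouse 155. In the positive fraction of the Cx3cr1-NuTRAP line, where the mice did not divide in this way, it ran from -0.22 in mouse 210 to 0.35 in mouse 155. Elsewhere it reached 0.56 in the positive fraction of mouse 293 and, in whole tissue, 0.60 in mouse 194 and -0.45 in mouse 210. The genes of a library share that library, so these are descriptions.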
